A study of Mus musculus with 6 samples.

Results

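The nuclei described here are the third of hepatocyte nuclei with the most pericentral RNA in each of 6 mouse livers, 1687 of 4930 hepatocyte nuclei and of 26467 nuclei that passed the quality filter. Hepatocytes were taken as nuclei with at least 500 genes, at least 1000 unique molecular identifiers (UMIs, 1 per captured RNA molecule) and under 5% mitochondrial UMIs, in which Apob, Cps1, Abcb11 and Mat1a gave at least 0.3% of UMIs and Stab2, Ptprb, Reln and Clec4f gave at most 3 UMIs. A zone score was then computed as the log2 ratio of the UMIs of Cyp2e1, Glul, Slc1a2, Gulo and Oat to those of Cyp2f2, Hsd17b13, Gls2 and Hal, with 1 added to each sum. The third with the highest score was taken within each library (the selected nuclei), and the third with the lowest score (the low-score nuclei) and the third between them (the middle nuclei) served for comparison. This gave 356, 234 and 329 nuclei from controls 1 to 3 and 260, 266 and 242 from knockouts 1 to 3.

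The livers came from male mice on chow, 18 weeks old and fasted for 12 hours overnight, with 1 library from each numbered liver. The 3 controls were littermates with the genotype label Plvap Control and the 3 others carried the label Plvap knockout, a deletion aimed at hepatic stellate cells through Cre driven by Lrat. The same strain label (C57BL/6JBomTac) and the same source label (Plvaptm1.1Salm-Tg(Lrat-cre)1Rshw) stand on both groups, and whether the controls carried Cre is not stated. Hepatocytes are therefore not the cells in which the deletion was aimed. Plvap itself gave 9, 4 and 3 UMIs in the selected nuclei of the controls and 4, 2 and 2 in those of the knockouts, too few to check the labels here.

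Hepatocytes along the liver lobule divide their work by position. Cells around the central vein receive Wnt signals from the neighbouring endothelium and carry out glutamine synthesis, xenobiotic metabolism and bile acid synthesis, while cells near the portal vein carry out gluconeogenesis, ammonia removal by the urea cycle and much of amino acid breakdown. Glul, glutamine synthetase, is confined in the adult liver to a thin layer next to the central vein, and Cyp2e1, a cytochrome P450 that oxidises ethanol, spans a wider pericentral band. In that layer Slc1a2 takes up glutamate, Oat makes glutamate from ornithine, and Rhbg carries ammonium.

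The Wnt pathway acts through TCF/LEF factors, which bind the letters ATCAAAG or, on the other strand, CTTTGAT. The promoter windows of the 5 pericentral score genes and of the 12 leading pericentral genes described below were searched for these letters on both strands. Promoters in RefSeq, on GRCm38.p6, were found for 13 of the 17 genes, with 19 windows of 250 bases before to 50 bases after a start. The letters stood in 2 of the 19 windows, against 3.73% of 32851 mouse promoter windows of the same length. They are shown because they are the 2 windows of the search that hold the letters. Slc1a2 entered the search as a gene of the score that chose the nuclei, so its level in them is no evidence of its position. The Slc1a2 window is chr2:102706188-102706487 on the plus strand, at a start inside the longer gene model (102658659 to 102790784). Its letters lie at positions -206 to -200, counted from the last base before the start. The Cyp2c29 window is chr19:39286835-39287134 on the plus strand, with the letters at -118 to -112 by the same count. Capitals mark the letters, and the sequences are 5′ to 3′.
Slc1a2: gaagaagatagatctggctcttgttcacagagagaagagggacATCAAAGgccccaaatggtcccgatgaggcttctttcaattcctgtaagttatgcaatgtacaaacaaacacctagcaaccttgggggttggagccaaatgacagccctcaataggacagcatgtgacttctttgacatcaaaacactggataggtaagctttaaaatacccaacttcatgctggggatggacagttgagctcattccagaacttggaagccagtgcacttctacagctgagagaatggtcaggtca
Cyp2c29: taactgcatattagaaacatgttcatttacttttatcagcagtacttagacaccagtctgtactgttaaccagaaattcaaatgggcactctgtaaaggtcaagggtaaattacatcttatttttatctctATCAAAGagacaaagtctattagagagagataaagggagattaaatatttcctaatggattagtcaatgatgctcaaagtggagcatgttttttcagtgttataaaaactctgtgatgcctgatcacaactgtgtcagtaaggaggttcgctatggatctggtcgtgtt
A match of these letters is a description of the window and shows no binding.

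The label of pericentral nuclei was checked against the score itself, and it held for some of the selected nuclei only. In each library the fullest bin of the score below 0 lay between -5 and -3.5 and the fullest above 0 between 4.5 and 6.5, and 10 to 24 nuclei had a score between -1 and 1. Nuclei with a score above 0, which carried more pericentral than periportal UMIs, made up 13.7%, 35.8% and 26.6% of hepatocyte nuclei in controls 1 to 3 and 16.2%, 13.2% and 21.7% in knockouts 1 to 3. The lowest score among selected nuclei was -3.32, 1.87 and -2.87 in controls 1 to 3 and -3.25, -3.09 and -3.17 in knockouts 1 to 3, and the nearest nuclei left out were at -3.37, 1.81 and -2.89 and at -3.27, -3.12 and -3.22. The share of the selected nuclei with a score above 0 was thus 38.8%, 100% and 78.7% in the controls and 47.7%, 39.5% and 61.6% in the knockouts. In control 1, knockout 1 and knockout 2 most selected nuclei had a score of 0 or below. The whole set is therefore called the selected nuclei below, by its rule, and results are also given for the members with a score above 0 (138, 234 and 259 in the controls, 124, 105 and 149 in the knockouts), a subset chosen after the distribution was seen.

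**Figure D1:**
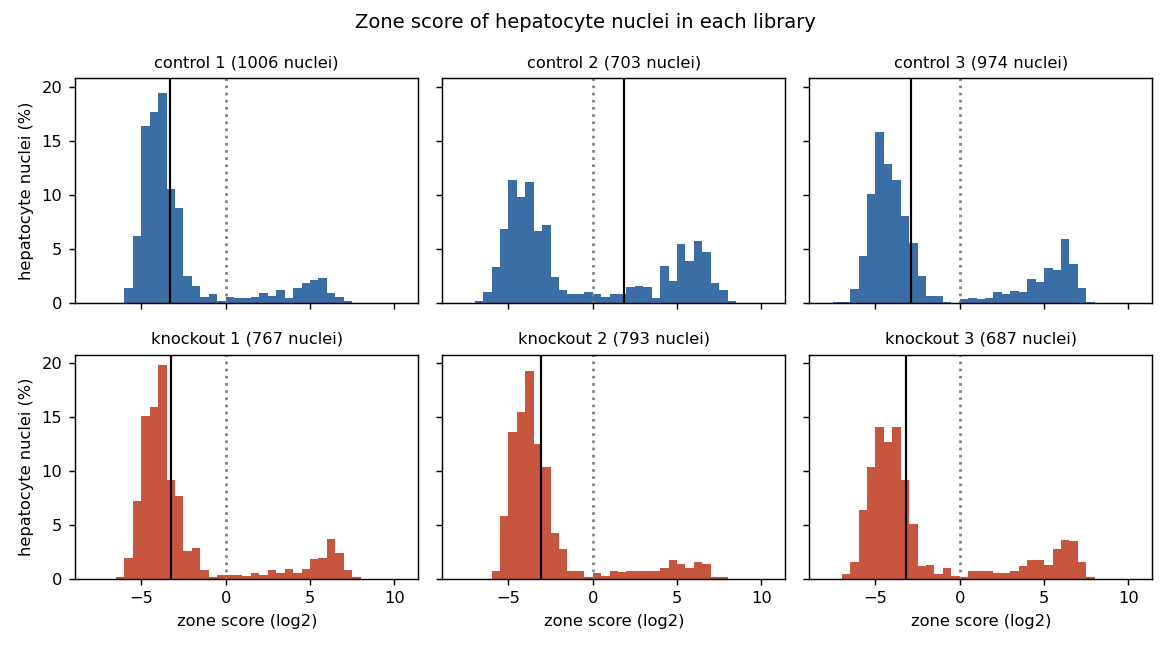
Distribution of the zone score (log2, x axis) in bins of 0.5 as a percentage of hepatocyte nuclei (y axis) in each of 6 libraries, controls in blue and knockouts in red. The solid line is the lowest score among selected nuclei and the dotted line is 0; the solid line lies above 0 only in control 2, at 1.87.

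The defining markers separated these subsets as described by the rule. Among members with a score above 0, a nucleus held a mean of 13.4, 26.7 and 23.8 Cyp2e1 UMIs in the controls and 21.0, 14.4 and 29.0 in the knockouts, and a mean of at most 0.55 UMIs of any of the 4 periportal genes in any library. Among members with a score of 0 or below, mean Cyp2e1 UMIs were 0.606 to 1.86 per nucleus over the 5 libraries that held such members, and mean Cyp2f2 UMIs were 2.55 to 4.23. No UMI of the 5 pericentral genes was found in 54 of the 356 selected nuclei of control 1. These values chose the nuclei and carry no test.

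The median selected nucleus held 8130 to 10760 UMIs and 3284 to 3631 genes. Doublet calls were 0.304% to 2.07% of these nuclei. Of 27220 barcode sequences, 77 occurred in more than 1 library, and 0 belonged to selected nuclei of more than 1. Control 1 and knockout 2 stood apart from the other 4 libraries: Cyp2c38 was at 452 and 313 CPM (UMIs of the summed nuclei, scaled to their total) in their selected nuclei and at 1907 to 3835 CPM in the others, and the hepatocyte transcription factor Onecut1 was at 440 and 521 CPM against 13.0 to 69.5 CPM. Among members with a score above 0, Cyp2c38 was at 1074 and 730 CPM in control 1 and knockout 2 and at 2372 to 4852 CPM in the others. Control 1 and knockout 2 lie in different groups, and results that change without them are given both ways. Mice were the replicates throughout. The labels do not tell over which preparation or sequencing runs the mice were spread.

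The first question was whether the knockout livers held fewer pericentral nuclei. The share of hepatocyte nuclei with a score above 0 was 25.4% ± 11.1 (SD) in the 3 controls and 17.0% ± 4.29 in the 3 knockouts, with an exact two-sided permutation p of 0.3, where 0.1 is the smallest that 3 against 3 mice allow. The 2 groups overlapped, since control 1 lay below knockouts 1 and 3. The other 3 summaries of the score gave a p of 0.4 to 0.7 by the same exact test (median score, score at the cut for selection, share past a common cut of -3), and the adjusted p over the 4 summaries was 0.533 to 0.7. The share past the common cut was 38.0% ± 10.8 (SD) over the controls and 31.5% ± 0.929 over the knockouts. Control 2, at 49.6%, was the highest library.

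The score genes were tested over all hepatocyte nuclei, since the hepatocyte gate does not use them, and 0 of 9 passed by edgeR's quasi-likelihood test (adjusted p of 1.0 for each). In that test 0 of 13611 genes passed, a background of 0.0%, with 439 at an unadjusted p under 0.05. DESeq2 called 15 over all hepatocyte nuclei, 7 higher and 8 lower, among them Orm2, Abcd2, Neto2, Serpina1e and Lipg, whose levels in the selected nuclei are given below. Oat was at 44.0, 102 and 81.0 CPM in control mice and 50.6, 39.6 and 57.6 CPM in knockouts, a log2 difference of -0.62 ± 0.31 (SE). Slc1a2 differed by -0.79 ± 0.64 and Cyp2e1 by -0.53 ± 0.61. Control 1 lay below the knockouts for Slc1a2, at 131 CPM, while controls 2 and 3 lay above them. Glul, at -0.14 ± 0.40, and Gulo, at -0.11 ± 0.24, changed sign when control 2 was left out (0.28 and 0.21).

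Glul was then followed per nucleus, as the marker of the layer next to the central vein. After thinning each nucleus to 3000 UMIs, a Glul UMI was found in 14.7% ± 5.62 (SD) of all hepatocyte nuclei over the 3 controls and 12.1% ± 2.78 over the 3 knockouts (exact permutation p of 0.6, 2-sided), and in 24.1% ± 8.55 and 19.0% ± 3.10 without thinning. Low-score nuclei gave 0% to 0.84% thinned and 1.14% to 6.69% unthinned, at median depths of 10290 to 12744 UMIs. The score chose them in part for few Glul UMIs, so their share is no independent measure of stray Glul. Among selected nuclei the thinned share was 23.3%, 51.1% and 42.5% in controls and 32.8%, 27.0% and 40.0% in knockouts. Among members with a score above 0 it was 46.4%, 51.1% and 49.8% in controls and 61.2%, 51.5% and 60.7% in knockouts, each knockout above each control, although the exact binomial intervals of knockout 2 (41.3% to 61.6%) and of control 2 (44.4% to 57.7%) overlapped. Unthinned, these shares were 58.7%, 64.1% and 63.3% against 66.1%, 61.0% and 64.4%, and the groups overlapped. Glul is part of the score, so these shares among members carry no test. The intervals cover counting error only.

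**Figure D2:**
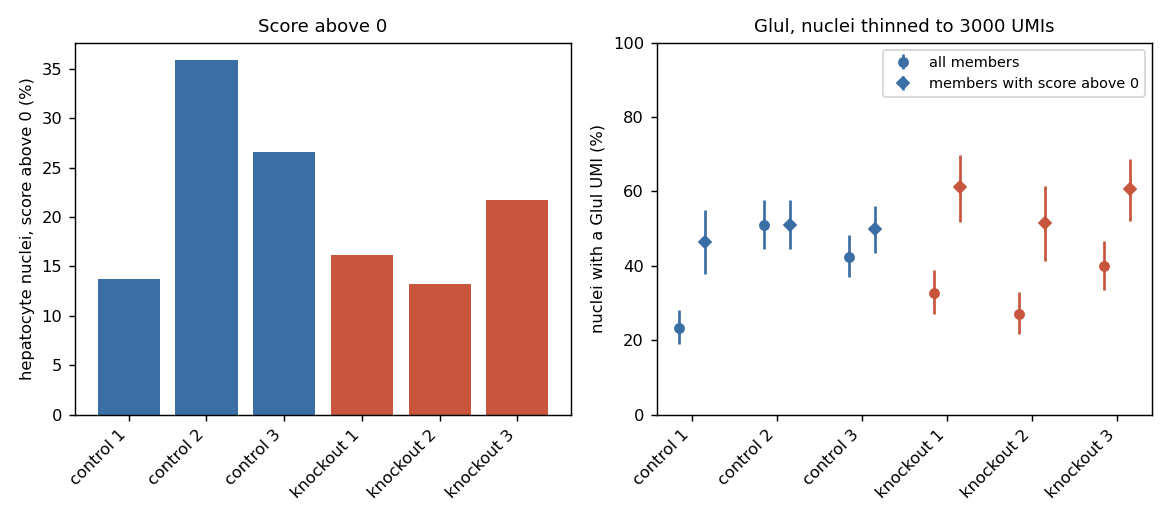
Left, bars give the percentage of hepatocyte nuclei with a score above 0 in each library, from 13.2% to 35.8%. Right, percentage of nuclei with a Glul UMI after thinning to 3000 UMIs, for all selected nuclei (circles) and those with a score above 0 (diamonds), with 95% exact binomial intervals; the circles range from 23.3% to 51.1% and the diamonds from 46.4% to 61.2%.

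The RNA of the selected nuclei was next set beside that of the low-score nuclei of the same mice. The rule chose both ends, so these ratios describe the nuclei and carry no test. Over 10604 genes with a mean of at least 5 CPM, 14.0% were higher in the selected nuclei in all 6 mice and 9.02% were lower in all 6, and for members with a score above 0 these shares were 16.3% and 12.0% of 10634 genes. Outside the score, the genes whose smallest ratio over the mice was highest were Esrrg, an orphan nuclear receptor, Lhpp, a phosphatase, Tbx3os1, an antisense neighbour of Tbx3, Lgr5, the R-spondin receptor that amplifies Wnt signals, Cyp2c38, Meg3, an imprinted long non-coding RNA, Kif26b, Tenm3, Sgcz, Cyp2c29, Rcan2 and Tmeff2.

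Esrrg (chromosome 1, 187608791 to 188214885, mm10) was at 336, 579 and 888 CPM in the selected nuclei of the controls and 484, 250 and 611 CPM in those of the knockouts, against 0.263 to 1.13 CPM in low-score nuclei. In all 6 mice it was at least 8.14 log2 units higher in the selected nuclei. Lgr5 (chromosome 10, 115450311 to 115587780) was at 143, 139 and 125 CPM in control mice and 157, 135 and 131 CPM in knockouts, and at most 0.451 CPM in low-score nuclei. Among members with a score above 0 it was at 343, 139 and 153 CPM and at 314, 314 and 198 CPM, so control 1, knockout 1 and knockout 2 were highest there. Cyp2c29 (chromosome 19, 39269405 to 39330713), whose window is printed above, was at 32.9, 149 and 313 CPM in control mice and 556, 100 and 273 CPM in knockouts, with log2 ratios of 5.38 to 7.86. Slc1a2, a score gene, was at 445, 2369 and 1841 CPM in control mice and 1092, 565 and 1315 CPM in knockouts, and at 0.295 to 1.68 CPM in low-score nuclei. Cyp2c genes lie in a cluster of close copies, and reads shared among them could be divided between them. Tbx3os1 overlaps Tbx3, and whether counting used strand was not given in the sources used here, so their reads cannot be told apart.

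**Figure D3:**
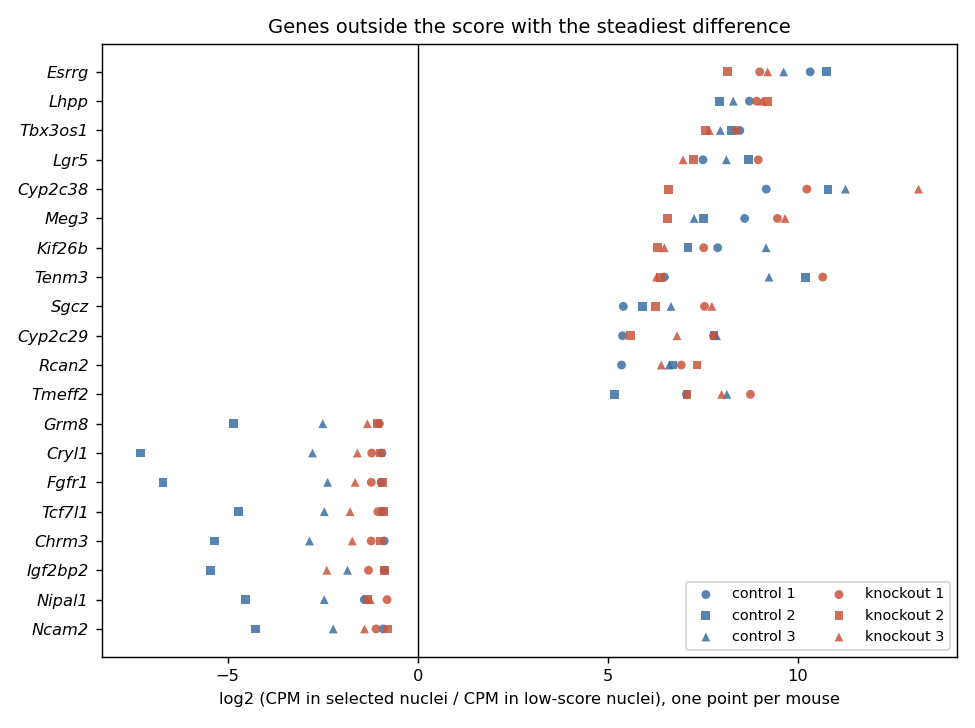
Log2 ratio of CPM in the selected nuclei to CPM in low-score nuclei (x axis), 1 point per mouse (blue controls, red knockouts), for the 12 pericentral and 8 other genes outside the score chosen by their least extreme ratio over the mice. The upper 12 genes lie between 5.17 and 13.2 in all 6 mice; the lower 8 lie below 0, with control 2 farthest from 0.

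Of 16 listed targets of Wnt and beta-catenin signalling, 13 were higher in the selected nuclei in 6 of 6 mice and 1 was lower, with no filter on their level, against 7.96% and 4.64% of all 23266 genes with a UMI. These are descriptions, since the nuclei were chosen by pericentral genes. The members of lists named in this and the next paragraph (Axin2, Tbx3, Rnf43, Cyp7a1, Nr1i2, Arg1, Ass1 and Sds among them) were chosen after their values were seen, and a count of 0 was set to 3 counts in the ratios. Axin2, a feedback inhibitor of the pathway, had a median log2 ratio of 5.11 over the mice, the transcription factor Tbx3 5.91, Notum, which inactivates Wnt proteins, 4.22, and Rnf43 and Znrf3, ligases that remove Wnt receptors, 2.07 and 0.61. Tcf7l2, a TCF factor, was lower in the selected nuclei in all 6 mice, with a median of -0.27. Of 31 other pericentral genes listed, 29 were higher in all 6 mice and Nr1i2, a xenobiotic receptor, was lower in all 6. Cyp7a1, the rate-limiting enzyme of bile acid synthesis, had a median ratio of 6.37 and Cyp3a25 one of 0.28.

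Of 23 periportal genes, 20 were lower in the selected nuclei in all 6 mice, among them the urea cycle enzymes Arg1 (-0.93) and Ass1 (-0.72) and the serine dehydratase Sds (-1.34). Hpd, a tyrosine-breakdown enzyme on that list, went the other way in all 6 mice, at 0.49. Genes of cholesterol synthesis were lower in all 6 mice for 18 of 25, and 11 of 13 mitochondrially encoded transcripts were higher in all 6. In every library the selected nuclei were shallower than the low-score nuclei, for example at a median of 8130 against 10290 UMIs in control 1. The part of depth in these ratios was not tested. Outside the lists, the genes that were lower in all 6 mice by the same rule included the glutamate receptor Grm8, the muscarinic receptor Chrm3, the growth factor receptor Fgfr1 and Tcf7l1. Chrm3 was at 401, 25.3 and 102 CPM in the selected nuclei of controls and at 303, 484 and 172 CPM in those of knockouts, lowest in control 2, where all members had a score above 0. Among members with a score above 0 it was at 15.3 to 47.0 CPM in the 6 mice, against 569 to 1036 CPM in low-score nuclei.

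Within the selected nuclei, those with at least 2 Glul UMIs (67, 118 and 143 in controls, 81, 60 and 89 in knockouts) were set beside those with 0. Both were chosen by a score gene, and no test was made. Sgcz, a sarcoglycan, was at 304, 106 and 316 CPM in the Glul nuclei of controls and 1023, 350 and 517 CPM in those of knockouts, against 0.678 to 8.42 CPM in nuclei without Glul. The non-coding RNA Rian, the orexin receptor Hcrtr2, the adhesion receptor Adgrg2 and Gna14 were likewise higher in all 6 mice. Lgr5 and Axin2 were higher in the Glul nuclei in all 6 mice, with median log2 ratios of 3.80 and 2.86. Arg1 was lower in all 6, at -2.62, as were the histidine-pathway enzyme Amdhd1 (-2.50), the asparaginase Aspg (-2.85) and the serine transporter Sfxn1 (-2.50). In control 2, where all members had a score above 0, Sgcz differed by 4.94, Lgr5 by 1.37, Arg1 by -3.45 and Cyp2e1, of the wider band, by 0.0066 log2 units.

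The main comparison was knockout against control within the selected nuclei, which asks whether loss of Plvap in stellate cells altered the RNA of the pericentral side. Of 11318 genes, 0 passed an adjusted p under 0.05 by edgeR's quasi-likelihood test, a background of 0.0%, while 407 (3.6%) had an unadjusted p under 0.05. DESeq2 called 1, Serpina1e, at an adjusted p of 0.0407. Among members with a score above 0, edgeR called 0 of 9882 (0.0%). The 3 knockouts all lay above the 3 controls for 4.36% of genes and all below for 3.59%. These shares were 4.38% and 3.92% in members with a score above 0, 3.91% and 3.29% in middle nuclei and 3.88% and 3.86% in low-score nuclei. The genes described next lead by unadjusted p and did not pass edgeR's test in these nuclei; each has an edgeR adjusted p of 0.999.

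Serpina1e (chromosome 12, 103946931 to 103958975), a copy of the alpha-1-antitrypsin family, was at 328, 287 and 358 CPM in control mice and 572, 1152 and 893 CPM in knockouts, a log2 difference of 1.42 ± 0.28 (SE). The groups did not overlap. In members with a score above 0 they did, since knockout 1, at 307 CPM, fell among the controls at 277 to 325 CPM. Its close copies could share reads, and Serpina1a, at 439, 294 and 300 CPM against 521, 681 and 574 CPM, also did not overlap. The log2 difference in Serpina1e was 1.38 ± 0.31 in low-score nuclei.

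Kcnt2 (chromosome 1, 140246158 to 140612067), a sodium-activated potassium channel, was at 19.5, 10.7 and 13.1 CPM in control mice and 28.7, 40.0 and 41.1 CPM in knockouts, a log2 difference of 1.33 ± 0.27. Members with a score above 0 gave 1.56 ± 0.34, without overlap. The leading higher genes were chosen for groups that did not overlap in the selected nuclei. The subset is a part of those nuclei, and the low-score nuclei came from the same mice, so neither is a separate check. Dlgap1 (chromosome 17, 69969073 to 70821413), a synaptic scaffold protein, was at 107, 79.6 and 99.8 CPM against 161, 180 and 154 CPM, a log2 difference of 0.79 ± 0.17, and 0.75 ± 0.22 in the subset. Both genes were higher in low-score nuclei than in members with a score above 0 in all 6 mice. In low-score nuclei Kcnt2 differed between groups by 0.92 ± 0.29 and Dlgap1 by 0.49 ± 0.18, both without overlap. Cd74, the invariant chain of MHC class II and a marker of immune cells, was at 7.41 to 12.2 CPM in control mice and 17.2 to 22.3 CPM in knockouts, a log2 difference of 1.00 ± 0.25. Macrophage markers, of which it is 1, summed to 74.1 to 83.3 CPM in control mice and 94.6 to 119 CPM in knockouts. In members with a score above 0 the Cd74 groups did not overlap (0.78 ± 0.38), and the macrophage sums overlapped, at 68.9 to 79.5 and 71.7 to 94.6 CPM. B cells also express Cd74, and 2 B cell genes did not overlap in the same members. Bank1 was at 1.83 to 5.94 and 15.0 to 27.4 CPM, and Ebf1 at 1.46 to 2.97 and 9.15 to 68.6 CPM. Both passed the low-count filter in those members through the knockouts alone, so their separation was largely set by the filter. All knockouts lay above all controls there for 4.38% of tested genes. Of 12 listed lymphocyte markers, 4 could be tested in those members, and 3 were higher and 1 was lower in knockouts. Over all selected nuclei, knockout 2 had Cd74 at 21.3 CPM, above the controls, and a lymphocyte marker sum of 44.6 CPM, below theirs. In low-score nuclei Cd74 differed by 0.64 ± 0.37, with overlap. The part of these cells in the Cd74 difference was not tested.

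The other 4 leading higher genes depended on which nuclei were taken. Tpst1, a tyrosine sulfotransferase, was at 21.9, 21.9 and 21.2 CPM in control mice and 37.3, 33.9 and 38.0 CPM in knockouts, but at 17.8 to 22.0 and 19.9 to 22.1 CPM in members with a score above 0, where the log2 difference was 0.08 ± 0.21 instead of 0.75 ± 0.16. Tsc22d4 went from 1.47 to 0.43, the retinol dehydrogenase Rdh16f2 from 0.97 to 0.31 and Hgfac, the activator of hepatocyte growth factor, from 0.73 to 0.16. All 4 had overlapping groups in the subset, and all 4 were higher in low-score nuclei than in the subset in all 6 mice. In low-score nuclei the log2 differences were 0.27 for Tpst1, 0.96 for Tsc22d4, 1.06 for Rdh16f2 and 0.63 for Hgfac. The groups of Rdh16f2 and Hgfac did not overlap there, and those of Tpst1 and Tsc22d4 did.

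The 8 leading lower genes were chosen for groups that did not overlap in the selected nuclei, of which the subset is a part. In the subset 7 of the 8 did not overlap, which is no separate check. All knockouts lay below all controls there for 3.92% of 9882 genes. Cidec (chromosome 6, 113424634 to 113435760), which enlarges lipid droplets, was at 119, 96.1 and 134 CPM in control mice and 57.0, 68.5 and 59.8 CPM in knockouts, a log2 difference of -0.91 ± 0.18. The groups did not overlap in the selected nuclei, in members with a score above 0 (-0.78 ± 0.23) or in low-score nuclei (-0.84 ± 0.17), and overlapped in middle nuclei (-0.64 ± 0.23). Neto2, an auxiliary subunit of kainate receptors, was at 56.2, 60.2 and 65.6 CPM against 22.6, 31.4 and 12.9 CPM, a log2 difference of -1.43 ± 0.29, and -1.38 ± 0.38 in the subset. S100a10, the annexin partner, was at 57.5, 79.2 and 80.2 CPM against 43.5, 37.1 and 39.7 CPM, a log2 difference of -0.85 ± 0.19. In low-score nuclei Neto2 differed by -1.09 ± 0.32 and S100a10 by -0.65 ± 0.19, both without overlap.

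The acute-phase protein Orm2 was at 8.34, 34.6 and 28.6 CPM in control mice and 2.87, 1.80 and 6.25 CPM in knockouts, a log2 difference of -2.72 ± 0.65 and, in the subset, -3.00 ± 0.64. Its family holds near copies. Dglucy, a glutamate cyclase, differed by -0.64 ± 0.17, Tmem120a by -0.70 ± 0.18 and Sumf2 by -0.66 ± 0.17, and these 3 stayed without overlap in the subset. In low-score nuclei Sumf2 differed by -0.042 ± 0.22, and the difference between the effects, -0.62 ± 0.23, did not pass (edgeR adjusted p = 0.982). The endothelial lipase Lipg, at -1.17 ± 0.29, overlapped between groups in the subset. In low-score nuclei Lipg differed by -1.37 ± 0.40, Orm2 by -2.64 ± 0.70 and Dglucy by -0.31 ± 0.20, each without overlap. Tmem120a differed there by -0.38 ± 0.21, with overlap.

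**Figure D4:**
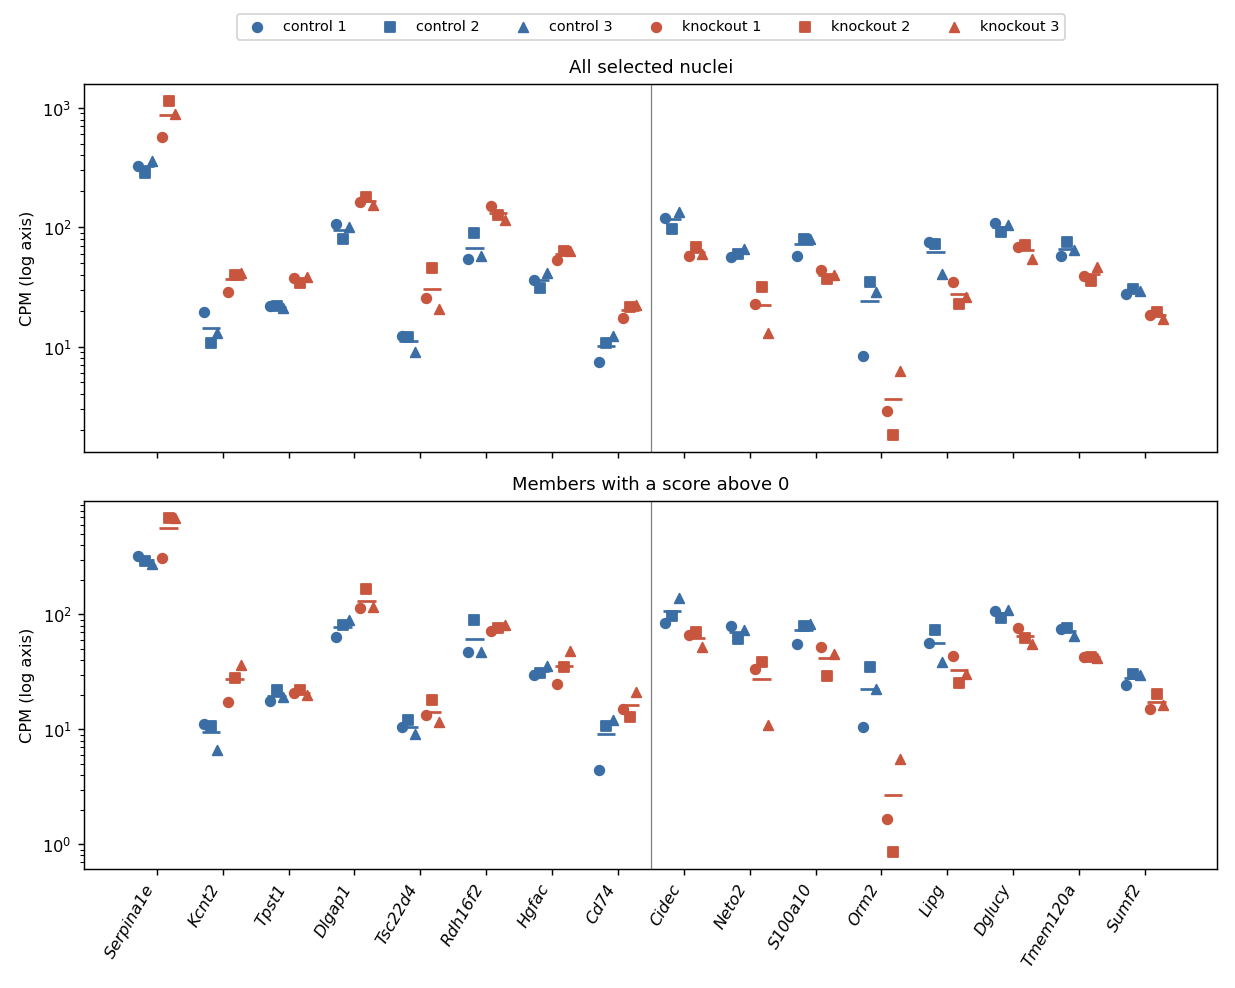
CPM (log axis) of the 8 higher and 8 lower leading genes in each mouse, for all selected nuclei (upper panel) and members with a score above 0 (lower panel), controls blue and knockouts red, with horizontal bars at the means of 3 mice. The groups of Tpst1, Tsc22d4, Rdh16f2 and Hgfac are apart in the upper panel and overlap in the lower one, while Cidec and Neto2 are apart in both.

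Lists of pathway genes were described by counts and medians, beside a median over all 11318 genes of -0.0026 (and -0.0050 over the 9882 of the subset). No listed gene passed. Of 35 tested targets of PPARA, the fatty acid receptor of the fasted liver, 30 were lower in knockouts, with a median log2 of -0.45, and 5 of 35 lay below all controls (Cidec, Txnip, Plin5, Vnn1 and Ppara, the last 3 named after their values were seen), against 3.59% of all genes. Leaving out 1 mouse moved the median over -0.54 to -0.24, the latter without control 3. Members with a score above 0 gave a median of -0.42 with 30 of 34 lower, and low-score nuclei gave -0.30. The fatty acid hydroxylase Cyp4a14 stood at 1955, 2558 and 5211 CPM in control mice and 2498, 1132 and 2475 CPM in knockouts. Its groups overlapped, control 3 being the highest library. Txnip, a glucose-responsive arrestin, was at 63.9, 108 and 184 CPM against 49.6, 46.5 and 23.2 CPM. Its groups overlapped in members with a score above 0, at 16.3, 109 and 151 CPM in controls and 36.6, 21.3 and 17.8 CPM in knockouts. They also overlapped in middle nuclei (log2 difference of -1.49) and low-score nuclei (-1.44).

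Fatty acid oxidation genes had a median of -0.14 with 25 of 34 lower, and ketone synthesis genes one of -0.046 over 7. Abcd2, a peroxisomal transporter of very long fatty acids, went the other way, at 2.16, 1.24 and 1.19 CPM in control mice and 25.0, 6.49 and 8.04 CPM in knockouts, a log2 difference of 3.05 ± 0.65. In the selected nuclei Abcd2 passed the low-count filter through the knockouts alone, so its separation there is no support for a difference. It was too low for the test in members with a score above 0, and lay higher by 3.42 in middle and 3.27 in low-score nuclei. Lipid droplet genes had a median of -0.37 with 13 of 16 lower, 4 of them without overlap (Cidec, Fitm2, Plin5 and Hilpda, the last 2 named after their values were seen), against 3.59% of all genes, and a median of -0.17 in the subset. The median was -0.19 without control 1 and -0.60 without knockout 2. G0s2, an inhibitor of lipolysis, was at 1410 CPM in control 1 and 107 to 452 CPM in the other 5 mice, and its log2 difference of -1.09 ± 0.92 turned to 0.70 without control 1. Lipogenic genes had a median of -0.049.

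Cholesterol synthesis genes were higher in knockouts for 23 of 24, with a median log2 of 0.57, and in members with a score above 0 for 12 of 18, with a median of 0.15. The first median was 1.03 without control 1, 0.37 without control 3 and 0.20 without knockout 2. Insig1, a sterol sensor, differed by 0.64 ± 0.26 in the selected nuclei and by -0.043 ± 0.32 in the subset, and Fdft1, squalene synthase, by 0.96 ± 0.42 and 0.38 ± 0.43. Periportal genes had a median of 0.36 in the selected nuclei and -0.19 in the subset, Wnt targets -0.13 and 0.15, and other pericentral genes -0.24 and 0.14. Single mice moved these medians of the selected nuclei too: leaving out 1 mouse gave 0.12 to 0.53 for periportal genes, -0.53 to -0.014 for other pericentral genes and -0.30 (without control 3) to 0.022 (without control 1) for Wnt targets.

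Transcripts of abundant hepatocyte proteins were higher in knockouts for 22 of 22, with a median of 0.48, and for 21 of 22 in the subset, with a median of 0.32. Without knockout 3 the first median was 0.31. Alb, serum albumin, was at 2189, 2346 and 2004 CPM in control mice and 3958, 3721 and 5436 CPM in knockouts, a log2 difference of 1.00 ± 0.26, and overlapped in the subset at 0.60 ± 0.41. The 22 transcripts summed to 15162 to 17708 CPM in control libraries and 22019 to 27586 CPM in knockout libraries, and in the subset to 14023 to 15162 and 16670 to 23118 CPM. In droplet data such transcripts also occur as free RNA; its part in the difference was not tested. Mitochondrially encoded transcripts had a median of 0.25, and 0.19 in the subset. Stress and immediate early genes had a median of -0.27, and -0.37 in the subset, with Gadd45g at -0.87 ± 0.45 and Egr1 at 1.54 ± 0.53. The other lists had medians of -0.11 in the selected nuclei and 0.072 in the subset (xenobiotic enzymes), -0.21 and -0.11 (bile acid synthesis and transport), -0.16 and -0.15 (glutamine, glutamate and ammonia handling), -0.048 and -0.27 (gluconeogenesis) and 0.073 and -0.061 (circadian clock). Leaving out 1 mouse moved those of the selected nuclei over -0.47 to 0.057, -0.43 to -0.033, -0.31 to -0.097, -0.18 to 0.073 and 0.023 to 0.20 in the same order, and those of stress genes over -0.50 to -0.10, mitochondrial transcripts over 0.094 to 0.40, lipogenic genes over -0.20 to 0.26 and fatty acid oxidation genes over -0.24 to -0.0071.

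**Figure D5:**
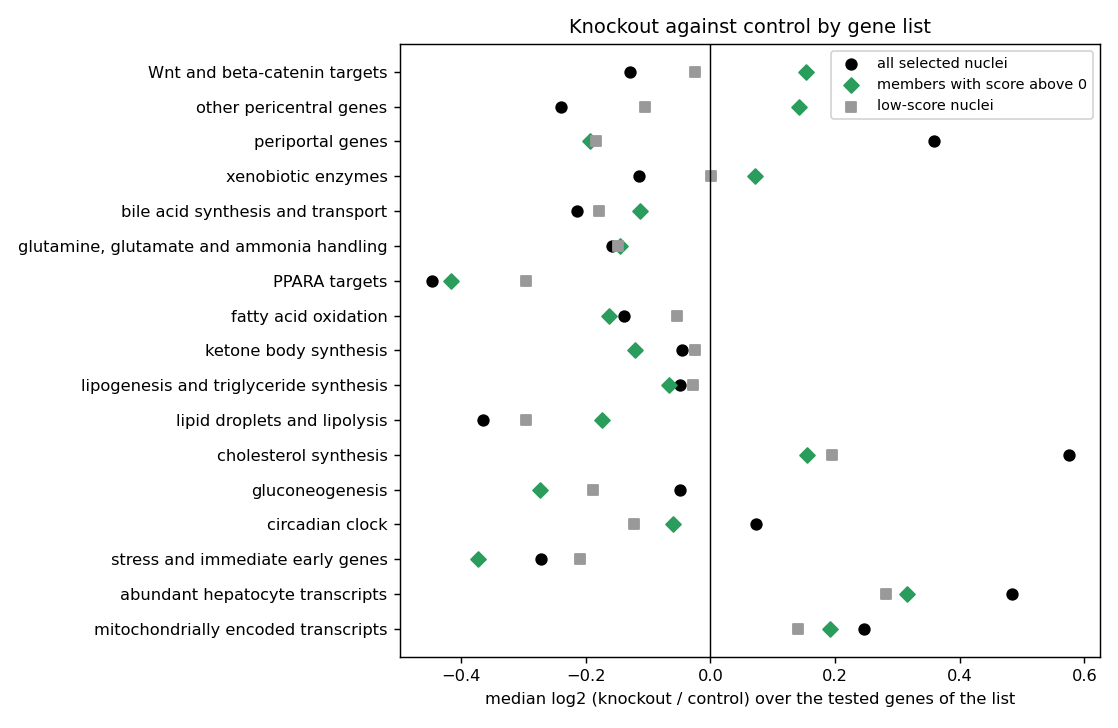
Median log2 ratio of knockout to control (x axis) over the tested genes of each list (y axis), for all selected nuclei (black circles), members with a score above 0 (green diamonds) and low-score nuclei (grey squares). PPARA targets lie between -0.45 and -0.30 in all 3 sets, while periportal genes lie at 0.36 in the selected nuclei and at -0.19 in the subset.

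Markers of other cell types were read beside these results. Lymphocyte markers summed to 45.1, 46.7 and 50.2 CPM in control mice and 88.8, 44.6 and 158 CPM in knockouts, so knockouts 1 and 3 stood above the other 4 libraries. Of the 12 listed, 5 had enough counts to test, against 2 in middle and 3 in low-score nuclei. Of these 5, 4 were higher and 1 was lower in knockouts, with a median log2 difference of 1.77. That median was 0.69 without knockout 1, 0.81 without knockout 3, 0.11 in thinned counts and -0.0062 with the score taken on thinned nuclei. In low-score nuclei the sums were 13.2 to 44.2 CPM. The B cell genes Bank1 and Ebf1 were at 8.21, 13.0 and 32.6 CPM and at 5.33, 14.4 and 62.5 CPM in the knockouts, against at most 6.49 and 8.03 CPM in controls. Knockout 1 lay within the controls for Ebf1. Endothelial markers summed to 118 to 196 and 161 to 187 CPM, and stellate markers to 80.9 to 154 and 136 to 152 CPM. Biliary markers summed to 574 and 678 CPM in control 1 and knockout 2, mostly Onecut1, and to 125 to 235 CPM in the others. The median log2 difference was 0.50 over biliary, 0.18 over endothelial, -0.054 over stellate and 0.14 over macrophage markers. No listed marker was at 0 in the selected nuclei of every library. The part of these cell types in the gene results was not tested.

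It was then tested whether the genotype difference itself differed between the selected and the other nuclei of the same mice, with mouse as a block. Against low-score nuclei, 5 of 12163 genes (0.0411%) passed edgeR's test, and against middle nuclei 1 of 11931 (0.00838%). Ces1c, a carboxylesterase of the pericentral list, was at 136, 257 and 170 CPM in the selected nuclei of controls and 336, 247 and 305 CPM in those of knockouts, and in low-score nuclei at 50.8, 92.7 and 60.7 against 225, 153 and 197 CPM. Its genotype difference was smaller in the selected nuclei (difference of -0.84 ± 0.11 log2 units, edgeR adjusted p = 0.0058), with log2 differences of 0.59 there and 1.44 in low-score nuclei. Susd4, a complement regulator, was at 102 to 163 and 90.8 to 137 CPM in the selected nuclei of controls and knockouts and at 4.96 to 8.06 and 12.1 to 23.0 CPM in their low-score nuclei (difference of -1.59 ± 0.23, edgeR adjusted p = 0.00787).

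Setbp1, a SET-binding protein, differed by 1.59 ± 0.26 (edgeR adjusted p = 0.04), with knockout 1 at 63.7 CPM and the other 5 mice at 8.70 to 18.2 CPM in the selected nuclei. Thsd4, Pdgfd and Kcnq5 averaged under 10 CPM and are named because they passed. Thsd4, a matrix protein, was at 0.801 to 2.37 CPM in the selected nuclei of controls and 1.64, 4.23 and 16.5 CPM in those of knockouts, against 3.38 to 6.04 and 0 to 0.59 CPM in low-score nuclei (6.11 ± 0.77, edgeR adjusted p = 0.00418). It passed the low-count filter only through selected nuclei of knockouts and low-score nuclei of controls, where it was high. The filter thus favoured this contrast. Pdgfd, a growth factor, differed by 3.99 ± 0.64 (0.0337) and the potassium channel Kcnq5, against middle nuclei, by 3.19 ± 0.49 (0.0247). With members with a score above 0 in place of all selected nuclei, 5 genes passed against low-score nuclei, of which 1, Thsd4, was shared. Both counts varied with single mice: they were 75 and 67 without control 1, 3 and 0 without control 2, 5 and 0 without control 3, 2 and 0 without knockout 1, 5 and 0 without knockout 2, and 0 and 1 without knockout 3, where the gene called against middle nuclei was Inpp4b. Without control 1 and knockout 2 they were 35 and 32.

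Adgrv1, a large adhesion receptor (chromosome 13, 81095068 to 81633154), did not pass with all selected nuclei and was at 21.0, 26.0 and 32.2 CPM in control mice and 107, 39.3 and 54.0 CPM in knockouts. In members with a score above 0 it was at 35.6, 26.2 and 35.1 CPM against 203, 71.5 and 72.0 CPM, a log2 difference of 1.84 ± 0.43, while in low-score nuclei the difference was -0.59 ± 0.29. With those members it was 1 of 6 genes that passed the test of a different effect against middle nuclei. Against low-score nuclei that test called 5 genes with those members, and Adgrv1 was not among them. The knockouts lay above the controls among members with a score above 0 and below them among low-score nuclei, a contrast that did not pass.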

How the data were processed

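RNA was measured in single liver nuclei with the Chromium 3′ kit version 3.1, per the labels. The authors deposited raw UMI counts per gene and barcode, made with Cell Ranger (7.0.1 per the submitters' processing notes, 7.1.0 per the file headers) on mm10. The other deposited columns are names and barcodes. Use of introns or strand was not given in the sources used here. Per-library totals were 23153182 to 27199466 UMIs over 32285 features.

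Counts of the selected nuclei were summed per mouse and tested with edgeR 4.0.16 (quasi-likelihood, TMM factors, filterByExpr, robust) in R 4.3.3, with Benjamini-Hochberg adjustment at 0.05. DESeq2 1.42.0 was an alternative. The edgeR fits of the knockout comparison and of the difference between sets of nuclei were tested on simulated data, and DESeq2 was not. The simulated counts were drawn independently for each mouse and set, with the same spread for all genes. They held no effect of mouse shared between sets, so they do not cover libraries that stand apart. Levels in the knockout comparison are TMM-scaled CPM; those in ratios between sets of nuclei, in sums of marker lists and in the test of their difference are CPM of all UMIs. Tied scores make the 3 sets of nuclei unequal. Doublets were called with scrublet in scanpy 1.11.5 (expected rate 0.06) and kept, except in an alternative. Shares were compared by exact permutation over mice. Intervals are 95% Clopper-Pearson intervals. Groups came from the genotype labels and replicate numbers from accession order. Each title carries its own number, taken as 1 mouse; the p-values measure only the spread between these samples, which may be technical where they are not separate animals.

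The members, the 22 gene lists and the alternatives were chosen with earlier results of these data known. Named genes were the score genes, the 8 per direction with the smallest unadjusted p, a mean of at least 10 CPM and no overlap between groups, 4 per list (the 2 highest and the 2 with the smallest p), the genes of at least 10 CPM past the tests of difference (or the 3 with the smallest p), and by least extreme ratio 12 and 8 zonated genes and 6 and 6 for Glul; the text names some of these, others are not reported here, and it says where a name was chosen after its values were seen. Alternatives were other scalings, DESeq2, no low-count filter, thinning to 3000 UMIs, leaving out libraries or doublets, other score rules, and members with a score above 0. Promoters are from RefSeq on GRCm38.p6 and gene positions from GENCODE on mm10.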

Additional observations from a re-analysis of the deposited data

Results flagged for a closer look

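Of the genes tested, 6 had a knockout effect that differed between the selected and other nuclei of the same mice by edgeR's test. Against low-score nuclei the differences of log2 effects were 6.11 for Thsd4, -0.84 for Ces1c, -1.59 for Susd4, 3.99 for Pdgfd and 1.59 for Setbp1, and against middle nuclei 3.19 for Kcnq5. Thsd4, Pdgfd and Kcnq5 rest on means of 3.49, 5.78 and 6.46 CPM. Thsd4 passed the low-count filter only through the sets of nuclei where it was high. Leaving out knockout 3 removed all 5 calls against low-score nuclei.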

How the results depend on the processing

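No paired analysis was possible because replicate numbers follow accession order and pair no mice. Knockout against control in the selected nuclei gave 0 genes in 17 of 18 alternatives and 1 with DESeq2. Against low-score nuclei, 5 genes became 66 without the low-count filter, 35 without control 1 and knockout 2, and 0 to 75 when 1 mouse was left out. Against middle nuclei, 1 gene became 26, 32 and 0 to 67 in the same alternatives, 0 with DESeq2, 4 without called doublets and 6 with scores above 0. The cause was not tested. Leaving out 1 mouse moved the difference in median score over -0.37 to 0.030, that in the thinned Glul share of all hepatocyte nuclei over -5.56 to 0.0351 percentage points, and that of members over -13.5 to 0.336 (8.70 with scores above 0).

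Of 61 genes recomputed, 55 kept their direction in every alternative run. With scores above 0, Notum turned to 0.019, Insig1 to -0.043, Susd4 to 0.072 and Pck1 to -0.10. Pck1 was -0.23 without control 1 and knockout 2 and -0.00696 with a stricter cut on the score. Leaving out 1 mouse gave ranges of -0.33 to 0.27 for Pck1, -1.66 to 0.70 for G0s2 and -0.91 to 0.064 for Slc16a7, and G0s2 was 0.14 without control 1 and knockout 2. Over all hepatocyte nuclei the ranges were -0.45 to 0.28 for Glul, -0.28 to 0.21 for Gulo, -0.12 to 0.17 for Cyp2f2, -0.15 to 0.29 for Gls2 and -0.82 to 0.11 for Hal. Of 396 list medians, 19 moved by more than the spread between mice. With 3 mice a group, differences that did not pass cannot be called absent.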
